A study of Mus musculus with 39 samples.

Results

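The proteasome genes described here are 38 of the 55487 gene identifiers in the deposited table, chosen by name as subunits or activators of the proteasome. Of these, 33 encode constitutive subunits and activators, and 5 (Psmb8, Psmb9, Psmb10, Psme1 and Psme2) encode the immune forms. Each symbol matched 1 row, and all 38 passed the filter on low counts. RNA was measured in microglia, the resident macrophages of the brain, from striatum of males of 8 to 10 weeks, after sorting for viability, CD11b, low CD45 and P2RY12. The labels give every mouse a prenatal condition (MIA for maternal immune activation, or CON), a second term, PLX or CON, that they do not define, and an injection of saline (SAL) or lipopolysaccharide (LPS), a bacterial cell wall component, given into the peritoneum at 4500 endotoxin units per gram, 18 hours before collection. The pair of terms is called an arm, prenatal condition first, as in MIA:PLX.

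The groups held 4 libraries each of CON:CON after saline, CON:CON after LPS, MIA:CON after saline and CON:PLX after saline, 3 of MIA:PLX after saline, and 6 each of MIA:CON, CON:PLX and MIA:PLX after LPS. These 37 of 39 libraries were used, since the titles of CON_CON_LPS replicate 3 and MIA_PLX_SAL replicate 1 ask for their exclusion. No strain, transgene or pooling of animals is given in the labels, and the labels do not say whether 2 replicates are 2 animals. P-values therefore reflect variation among these libraries, part of which may be technical.

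The proteasome is the barrel-shaped protease that degrades ubiquitin-tagged proteins. Its core is a stack of rings of alpha subunits (Psma genes) and beta subunits (Psmb genes), of which Psmb5, Psmb6 and Psmb7 carry the proteolytic sites. In the immunoproteasome, known for the supply of peptides to MHC class I, these are replaced by Psmb8, Psmb9 and Psmb10 respectively, and interferon gamma is the classical inducer of the replacement. A regulatory particle of ATPases (Psmc genes) and other subunits (Psmd genes) unfolds substrates and feeds them in, and the activators PA28 (Psme1 and Psme2), Psme3 and Psme4 can open the core in its place.

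Depth and sample quality bear on all values below. Library totals ran from 1510006 to 5746240 counts, and a single proteasome gene had between 23 and 740 counts in a library. Mitochondrial ribosomal RNA took 9.7% to 13.7% of the counts after saline and 6.14% to 19.3% after LPS. The summed level of 10 microglia markers (P2ry12, Tmem119 and others) was 16580 to 20170 CPM (counts per unit of library size, corrected with TMM factors) after saline and 6821 to 15660 CPM after LPS, and all 10 had counts in every group. That of 6 monocyte markers was 2.63 to 16.6 CPM after saline and 11.3 to 632 CPM after LPS, that of 6 neutrophil markers 0 to 67.4 and 2.78 to 133 CPM, and that of 8 lymphocyte markers was at most 1.99 CPM in any library, with all 6 monocyte and all 6 neutrophil markers counted in at least 1 library of each injection. Summed astrocyte markers were 101 to 704 CPM after saline and 53.1 to 224 CPM after LPS. Those of border macrophages were 28.75 to 91.0 and 5.92 to 188 CPM, and those of oligodendrocytes 36.6 to 79.7 and 25.1 to 81.0 CPM. Endothelial markers were at 19.4 to 39.9 and 6.64 to 24.7 CPM, and neuron markers at 11.5 to 37.3 and 2.30 to 47.2 CPM. Among the monocyte markers, Ccr2 went the other way from the sum. Its group means were 5.25, 6.19, 6.82 and 7.61 CPM after saline (CON:CON, MIA:CON, CON:PLX and MIA:PLX). After LPS they were 2.89, 2.67, 2.86 and 1.39 CPM in the same order. The part of these marker shifts in the LPS results was not tested. In bulk RNA of this kind, fewer cells of a type and less RNA per cell cannot be told apart.

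The library labelled MIA_CON_LPS replicate 6 stood apart from its group. Its P2ry12 level was 1780 CPM, against 240 to 444 CPM in the other 5 libraries of the group and 2070 to 2880 CPM in saline libraries. Its counts were closer to those of the left-out MIA_PLX_SAL replicate 1 than in any other of the 741 pairs of libraries, with a chi-square per degree of freedom of 1.56 over 9643 genes, and 2.53 in the next closest pair. It was kept under its label. Without it, MIA:CON log2 fold changes (LPS over saline) were 0.40 for Psmb8, 0.00 for Psmb9, 0.78 for Psmb10, 1.42 for Psme1, 1.36 for Psme2, 0.70 for Psmb5, 0.75 for Psmb6 and 0.78 for Psmb7, and Psme4 (0.38) passed there. Values with it stand below.

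These 4 promoter windows are printed from RefSeq (GRCm38.p6, 250 bases before to 50 after the annotated start), because they belong to the proteasome genes on which the LPS comparison turns: Psme1 and Psmb3, with the largest changes of the immune and the constitutive genes in the mean of the arms, and Psmb8 and Psmb9, immune catalytic genes in the MHC region with Tap1 between them and with smaller mean values. Capitals mark a match to the core of the interferon-stimulated response element (GAAANNGAA) or of the gamma-activated site (TTCNNNGAA), on either strand.
Psme1, chr14:55578244-55578543, plus strand: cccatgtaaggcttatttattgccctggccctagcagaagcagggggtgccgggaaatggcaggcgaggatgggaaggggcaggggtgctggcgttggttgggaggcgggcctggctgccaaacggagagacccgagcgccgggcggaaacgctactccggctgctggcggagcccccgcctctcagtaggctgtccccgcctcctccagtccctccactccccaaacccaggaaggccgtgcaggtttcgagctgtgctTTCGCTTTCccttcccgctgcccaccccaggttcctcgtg
Psmb3, chr11:97703184-97703483, plus strand: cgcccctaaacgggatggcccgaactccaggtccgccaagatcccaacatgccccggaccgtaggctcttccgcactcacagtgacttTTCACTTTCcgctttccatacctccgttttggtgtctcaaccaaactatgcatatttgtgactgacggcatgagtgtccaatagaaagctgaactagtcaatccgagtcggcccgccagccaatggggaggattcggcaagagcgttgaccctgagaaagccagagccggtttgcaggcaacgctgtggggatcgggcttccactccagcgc
Psmb8, chr17:34197945-34198244, plus strand: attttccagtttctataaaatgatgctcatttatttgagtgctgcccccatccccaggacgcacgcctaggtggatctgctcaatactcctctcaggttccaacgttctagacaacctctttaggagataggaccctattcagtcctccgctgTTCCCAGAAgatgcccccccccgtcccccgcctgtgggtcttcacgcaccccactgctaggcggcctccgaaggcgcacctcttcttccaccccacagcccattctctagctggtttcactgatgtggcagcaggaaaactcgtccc
Psmb9, chr17:34187281-34187580, minus strand: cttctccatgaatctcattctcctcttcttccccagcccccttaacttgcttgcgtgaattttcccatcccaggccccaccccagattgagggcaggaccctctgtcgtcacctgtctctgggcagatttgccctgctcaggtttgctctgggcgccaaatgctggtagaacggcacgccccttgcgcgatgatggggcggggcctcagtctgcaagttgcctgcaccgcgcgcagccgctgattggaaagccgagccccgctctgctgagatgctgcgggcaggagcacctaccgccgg

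The capitals in Psme1 and Psmb3 are the interferon-stimulated core on the opposite strand, and those in Psmb8 are the gamma-activated core. Counting the start base as 0, the match lay at 10 to 18 in Psme1, at -162 to -154 in Psmb3 and at -97 to -89 in Psmb8. The Psmb9 window held neither motif. It shares 275 bases with the window of Tap1, the peptide transporter gene that runs the other way, and the annotated gene bodies of Psmb9 and Tap1 share 212 bases, so unstranded reads from that stretch cannot be told apart. Each printed window covers 1 RefSeq start. The annotated gene bodies begin further upstream, at 34187764 for Psmb9 (minus strand), 34197721 for Psmb8 and 55578123 for Psme1. The bases before those positions were not searched. Promoter entries were matched for 32 of the 38 genes. The interferon-stimulated core was found for 5 of them (Psmb3, Psmb4, Psmc2, Psmd4 and Psme1) and in 8.56% of the 32851 promoters in the table. The gamma-activated core was found for 2 (Psmb8 and Psmd2) and in 8.3% of all promoters, and an NF-kB core (GGANTTTCC) for 0 and in 1.25% of all. A match is a string of letters and not a site. The printed windows were picked by the responses in these data. The windows of Psme2, Psmb10, Psma6, Psmd8 and Psmd14, all called higher in the mean of the arms, held none of these motifs. Psmc2, with a smaller mean change than each of them, had a match. Whether the motifs go with the response was not tested.

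In CON:CON microglia after saline, immune and constitutive catalytic transcripts were present at levels of the same order. Per kilobase of the longest coding transcript, Psmb8 stood at 18.4 ± 4.1 CPM (SD, n = 4) and Psmb5, the subunit it replaces, at 17.1 ± 4.0. Psmb9 stood at 18.1 ± 2.1 and Psmb6 at 27.1 ± 7.2 CPM per kilobase. Psmb10 stood at 14.2 ± 3.4 and Psmb7 at 23.6 ± 3.0 CPM per kilobase, further apart than their SDs. The levels of all 38 genes spanned 6.23 ± 1.86 CPM per kilobase for Psmd13, a lid subunit of the regulatory particle, to 38.5 ± 6.0 for Psma6 of the alpha ring. Just below Psma6 came Psme1 at 35.3 ± 3.4 and Psmb4 at 34.7 ± 5.3, and these 3 did not differ beyond their SDs. After LPS in the same arm, Psme1 was at 84.4 ± 27.4 and Psma6 at 74.4 ± 13.4 CPM per kilobase, again within their SDs.

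**Figure D1:**
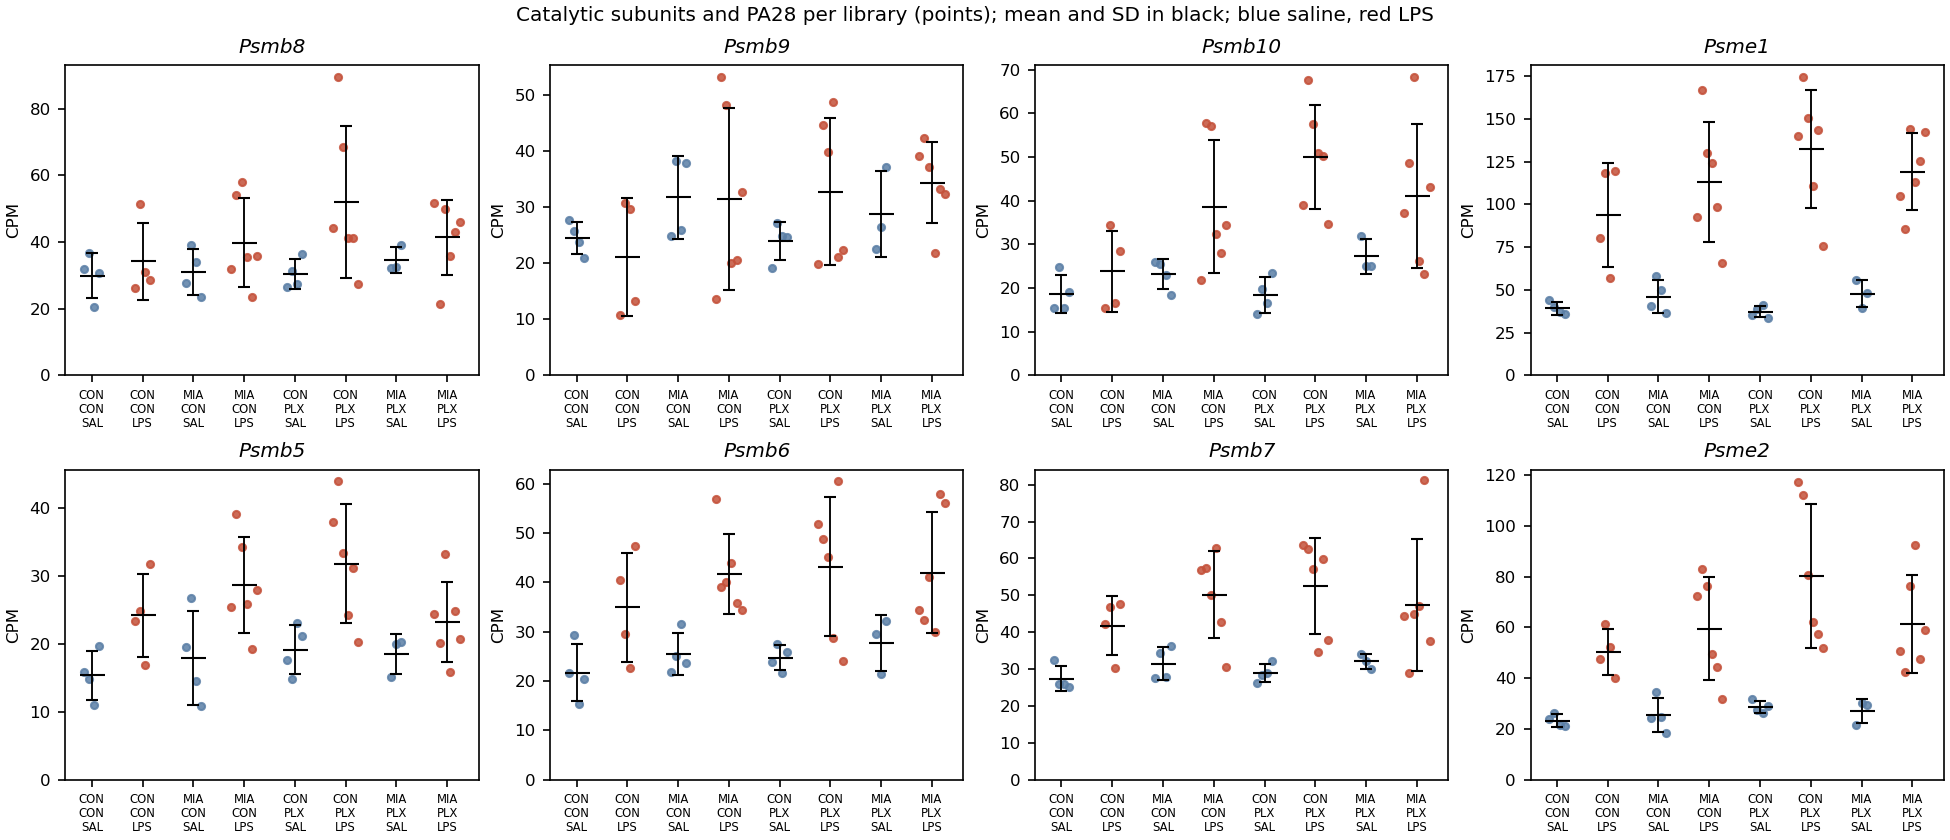
Level of the 3 immune catalytic subunits, their 3 constitutive counterparts and the PA28 genes in CPM (linear axis from 0) in each of 37 libraries, by group, with the mean and SD in black, saline in blue and LPS in red. Psme1 after LPS lies between 57.1 and 174 CPM and after saline between 33.7 and 57.9 CPM, while the Psmb9 points after saline lie inside the range of those after LPS.

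PA28 rose after LPS in every arm. PA28 alpha (Psme1) and PA28 beta (Psme2) form the ring that caps the core. In CON:CON, Psme1 stood at 44.2, 40.2, 36.9 and 35.9 CPM in the 4 saline libraries and at 80.6, 118, 57.1 and 120 CPM in the 4 LPS libraries. Every LPS library was above every saline library, and the same held for Psme1 within each of the other 3 arms. The log2 fold change (LPS over saline) was 1.25 ± 0.24 (SE) in CON:CON, 1.30 ± 0.23 in MIA:CON, 1.83 ± 0.23 in CON:PLX and 1.31 ± 0.26 in MIA:PLX. Averaged over the arms it was 1.42 ± 0.12, with an adjusted p of 2.68e-12 by edgeR.

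Psme2 in CON:CON was at 24.1, 26.4, 21.6 and 21.0 CPM after saline and at 47.4, 61.4, 52.5 and 40.0 CPM after LPS. The injections did not overlap there, in CON:PLX or in MIA:PLX. In MIA:CON they overlapped through the library labelled MIA_CON_LPS replicate 6, whose 31.8 CPM fell below the 34.7 CPM of the highest saline library. Log2 fold changes were 1.12 ± 0.27, 1.22 ± 0.26, 1.49 ± 0.26 and 1.19 ± 0.29 in CON:CON, MIA:CON, CON:PLX and MIA:PLX, and 1.25 ± 0.13 on average (adjusted p = 6.89e-10, edgeR). 

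The immune catalytic subunits had smaller mean values than PA28, a difference that was not tested, and in CON:PLX Psmb10 came near Psme2. Psmb8 in CON:CON was at 31.8, 36.6, 20.6 and 30.6 CPM after saline and at 26.2, 51.3, 31.0 and 28.5 CPM after LPS. One LPS library (replicate 2) was above all saline libraries and the other 3 were inside their range, and the injections overlapped in every arm. Psmb8 changed by 0.20 ± 0.29, 0.37 ± 0.27, 0.78 ± 0.27 and 0.25 ± 0.30 (log2, in the order CON:CON, MIA:CON, CON:PLX, MIA:PLX), with a mean of 0.40 ± 0.14 that passed the threshold (adjusted p = 0.0159, edgeR). Of the single arms it passed in CON:PLX alone (adjusted p = 0.0252). There the 6 LPS libraries ran from 27.5 to 89.6 CPM with a median of 42.7, and the 4 saline libraries were at 26.6, 31.4, 27.2 and 36.3 CPM. That call was lost without CON_PLX_LPS replicate 2 (0.55) or 3 (0.68), or without CON_PLX_SAL replicate 1 (0.71) or 3 (0.73).

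Psmb10 showed a larger difference between arms on its face. In CON:CON it was at 15.4, 24.7, 15.3 and 19.2 CPM after saline and at 15.5, 34.5, 16.6 and 28.5 CPM after LPS. In CON:PLX it was at 13.98, 19.9, 16.5 and 23.4 CPM after saline and between 34.7 and 67.6 CPM (median 50.6, n = 6) after LPS. The injections overlapped in CON:CON and did not in CON:PLX. Log2 fold changes were 0.35 ± 0.30, 0.74 ± 0.28, 1.44 ± 0.28 and 0.59 ± 0.31 in the same order of arms, with a mean of 0.78 ± 0.15 (adjusted p = 2.28e-05, edgeR). It passed in CON:PLX (adjusted p = 0.000149) and in MIA:CON (0.0473). The MIA:CON call was lost without LPS replicate 2 (0.60) or 3 (0.61) or any 1 of the 4 saline libraries of that arm (0.65 to 0.81), and it was kept without the library labelled MIA_CON_LPS replicate 6 (0.78). RLE factors, no filter, only the groups compared or leaving out mitochondrial ribosomal RNA also ended it (0.70 to 0.74), while voom called Psmb10 in MIA:PLX (0.65). The test of the difference between CON:PLX and CON:CON gave 1.09 ± 0.41 with an adjusted p of 1 by edgeR, so the arms were not shown to differ.

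Psmb9 did not pass the edgeR test in any arm or on average, and limma voom called it in CON:PLX alone (0.52). In CON:CON it was at 27.6, 25.7, 23.7 and 21.0 CPM after saline and at 10.7, 30.7, 29.7 and 13.3 CPM after LPS. Replicates 1 and 5 after LPS were below every saline library and replicates 2 and 4 above. In the other 3 arms LPS libraries ran from 13.6 to 53.1, 19.9 to 48.7 and 21.7 to 42.3 CPM (MIA:CON, CON:PLX and MIA:PLX, 6 each). Log2 fold changes were -0.21 ± 0.34, 0.01 ± 0.31, 0.46 ± 0.31 and 0.26 ± 0.35, with a mean of 0.13 ± 0.16 (adjusted p = 0.520, edgeR). A miss of the threshold with errors of this size does not show that Psmb9 was unchanged. Without CON_CON_LPS replicate 1 its CON:CON value was 0.01, and without MIA_CON_LPS replicate 2 or 3 its MIA:CON value was -0.20 or -0.14.

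The 3 constitutive catalytic subunits all rose on average after LPS. In CON:CON, Psmb5 ran from 10.9 to 19.7 CPM after saline and from 16.9 to 31.7 CPM after LPS, Psmb6 from 15.3 to 29.3 and from 22.5 to 47.3 CPM, and Psmb7 from 25.0 to 32.5 and from 30.2 to 47.6 CPM. The injections overlapped for each of them in this arm. Mean log2 fold changes over the arms were 0.60 ± 0.13 for Psmb5 (adjusted p = 0.000145), 0.69 ± 0.12 for Psmb6 (1.32e-05) and 0.67 ± 0.11 for Psmb7 (4.94e-06), by edgeR. Every value of Psmb7 had a fractional estimated count, so its reads were shared out in part. The gene overlaps exons of Nek6, and whether that is the source was not tested. Psmb8 shares 14.7% of its exon bases with another gene and had 8.11% fractional values. The members next most often fractional were Psma3 (75.7% of values, with 0% of exon bases shared), Psma4 (54.1%) and Psmd1 (51.4%).

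Arm by arm, log2 fold changes of Psmb5 were 0.65 ± 0.27, 0.69 ± 0.25, 0.74 ± 0.24 and 0.33 ± 0.27 (CON:CON, MIA:CON, CON:PLX, MIA:PLX), and those of Psmb6 0.69 ± 0.26, 0.70 ± 0.24, 0.81 ± 0.24 and 0.58 ± 0.26. Those of Psmb7 were 0.61 ± 0.23, 0.67 ± 0.22, 0.86 ± 0.22 and 0.56 ± 0.24. Of these 12 values, 7 passed: Psmb6 in CON:CON, and all 3 genes in MIA:CON and CON:PLX. Of all genes tested, 13.7%, 14.5%, 17.5% and 11.8% were called higher in the 4 arms, in the same order. Psmb6 and Psmb7 in CON:PLX kept the call without each library in turn. Psmb6 in CON:CON lost it when replicate 1 (0.61) or 5 (0.51) after LPS, or 1 (0.69), 3 (0.56) or 4 (0.66) after saline, was left out. In MIA:CON, Psmb5 lost it when replicate 2 (0.60) or 3 (0.65) after LPS, or 1 (0.74), 3 (0.61) or 4 (0.51) after saline, was left out. Psmb6 in MIA:CON lost it when replicate 1 (0.60) after LPS, or 1 (0.63), 2 (0.71) or 4 (0.67) after saline, was left out, and Psmb7 when replicate 4 (0.59) after LPS, or 1 (0.61) or 3 (0.61) after saline, was. Without the filter all 3 lost the MIA:CON call (0.64 to 0.67), with only the groups compared Psmb5 (0.66) and Psmb7 (0.64) did, and Psmb6 in CON:CON kept its call with voom and with all 39 libraries alone of the 8 alternative fits. In the other direction, voom called Psmb7 in CON:CON (0.69), and without LPS replicate 4 Psmb5 (0.78) and Psmb7 (0.73) passed there. Psmb5 in CON:PLX lost it without CON_PLX_SAL replicate 1 (0.69) or 2 (0.62).

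Within a library, the ratio of each immune catalytic subunit to the one it replaces needs no scaling between libraries. The log2 ratio of Psmb8 to Psmb5 in CON:CON was 0.96 ± 0.27 (SD, n = 4) after saline and 0.48 ± 0.57 (n = 4) after LPS. For Psmb9 to Psmb6 it was 0.21 ± 0.36 after saline and -0.82 ± 1.21 after LPS, with LPS libraries from -1.90 to 0.40. For Psmb10 to Psmb7 it was -0.57 ± 0.43 and -0.87 ± 0.42. The injections overlapped for all 3 ratios in all 4 arms.

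LPS minus saline, the Psmb8 to Psmb5 ratio differed by -0.47, -0.40, -0.03 and -0.10 in CON:CON, MIA:CON, CON:PLX and MIA:PLX, with adjusted p from 0.457 to 0.962 by exact permutation. The Psmb9 to Psmb6 ratio differed by -1.02, -0.85, -0.37 and -0.31 (adjusted p from 0.533 to 0.643, exact permutation). The Psmb10 to Psmb7 ratio differed by -0.30, 0.01, 0.60 and 0.02, with the smallest p in CON:PLX (exact permutation p = 0.0286, adjusted 0.343). None of the 12 two-sided tests passed after adjustment over the 12, and none of the ratios was shown to shift towards the immune form. With 1 library left out, the Psmb9 to Psmb6 difference ran from -1.43 to -0.66 in CON:CON, -1.05 to -0.55 in MIA:CON, -0.61 to -0.16 in CON:PLX and -0.52 to -0.18 in MIA:PLX, and that of Psmb8 to Psmb5 from -0.66 to -0.26 in CON:CON and -0.51 to -0.28 in MIA:CON. Without the library labelled MIA_CON_LPS replicate 6, the MIA:CON differences were -0.38 (Psmb8 to Psmb5), -0.94 (Psmb9 to Psmb6) and -0.11 (Psmb10 to Psmb7). The smallest p these designs allow is 0.0286 with 4 against 4 libraries, 0.00952 with 6 against 4 and 0.0238 with 6 against 3.

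**Figure D2:**
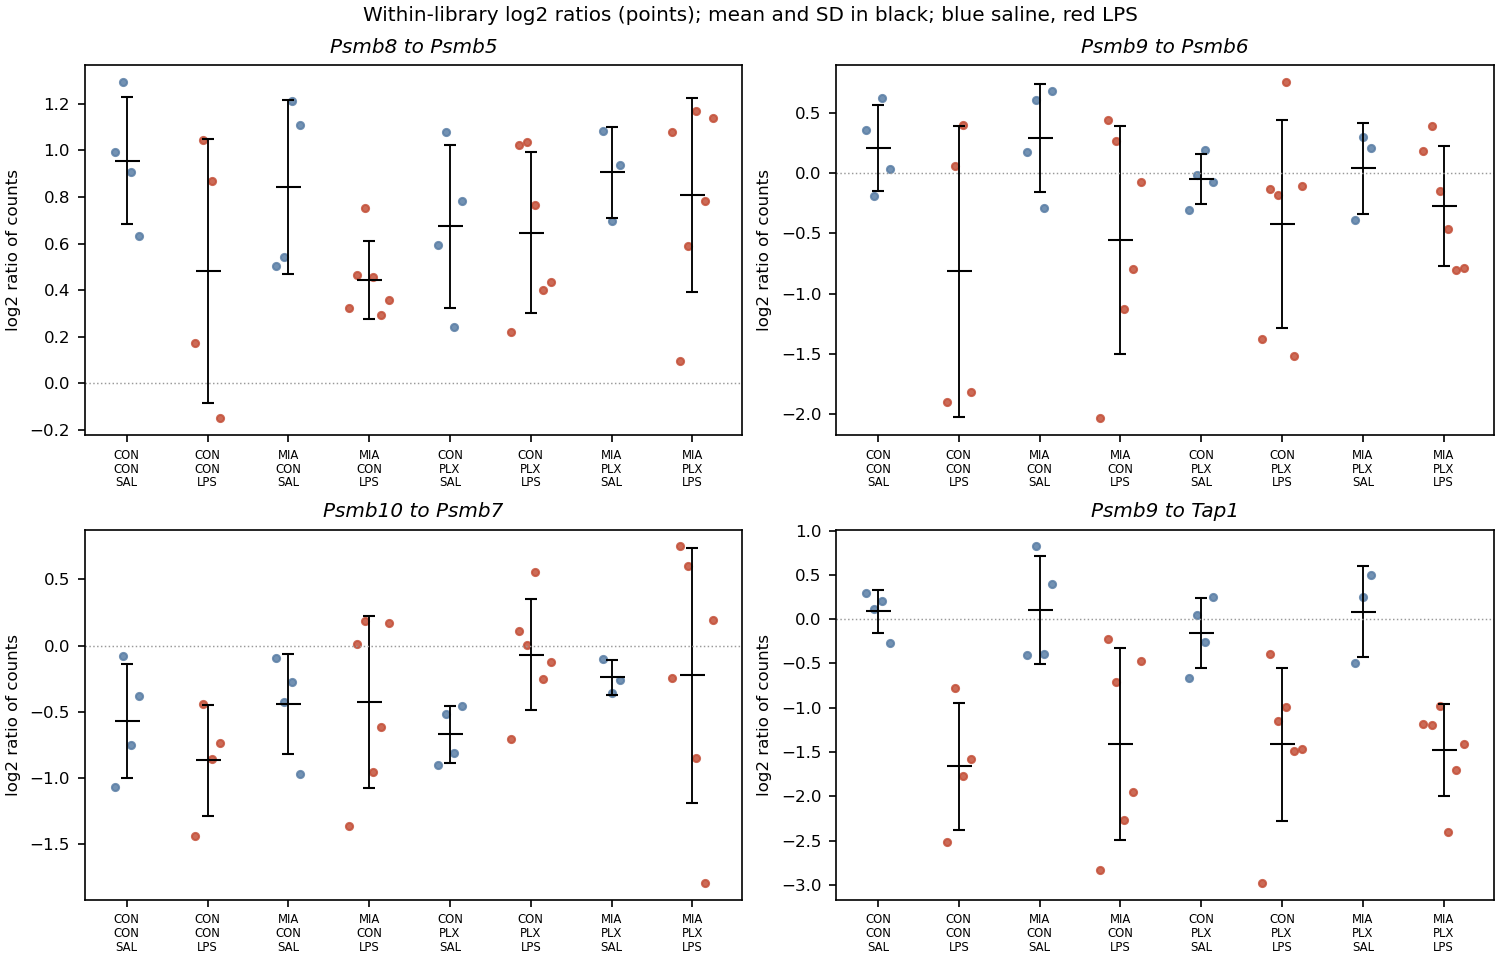
Within-library log2 ratio of counts (pseudocount 0.5) for 3 immune to constitutive pairs and for Psmb9 to Tap1 in each of 37 libraries, with the mean and SD in black, saline in blue and LPS in red; the dotted line marks equal counts. The injections overlap in the first 3 panels, and in the fourth the LPS libraries reach from -2.98 to -0.22 against -0.66 to 0.82 after saline.

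Psmb9 was also set beside Tap1, the divergent gene whose annotated promoter window overlaps its own. The pair was chosen after both responses were seen, so the values are a description with no test. In CON:CON, Tap1 was at 22.4, 23.7, 20.6 and 25.3 CPM after saline and at 61.9, 52.7, 102 and 40.0 CPM after LPS, with no overlap, and its log2 fold change averaged 1.60 ± 0.13 over the arms (adjusted p = 2.77e-12, edgeR). The log2 ratio of Psmb9 to Tap1 was 0.09 ± 0.25 (SD, n = 4) after saline and -1.66 ± 0.71 (n = 4) after LPS in CON:CON. The differences were -1.75, -1.51, -1.25 and -1.56 in CON:CON, MIA:CON, CON:PLX and MIA:PLX. The injections did not overlap in CON:CON and MIA:PLX. Without the library labelled MIA_CON_LPS replicate 6 the MIA:CON difference was -1.70. Leaving out 1 library at a time kept the sign in every arm, with differences from -2.04 to -0.94.

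The rest of the core rose broadly after LPS, in a mean of the arms where 30.3% of all genes tested were called higher. Among the non-catalytic beta subunits, all 4 were called higher in the mean of the arms, led by Psmb3 at 1.23 ± 0.12 (log2; adjusted p = 1.35e-10, edgeR). In CON:CON Psmb3 stood at 12.4, 14.2, 10.9 and 14.9 CPM after saline and at 39.6, 27.7, 18.9 and 27.9 CPM after LPS, and the injections did not overlap in any arm. Psmb1 had the largest p of the 4, with a mean change of 0.55 ± 0.094. In the alpha ring, which gates entry to the core, all 7 subunits were called higher on average, from 0.43 ± 0.10 for Psma1 to 0.92 ± 0.10 for Psma6 (adjusted p = 2.24e-09, edgeR). Psma6 in CON:CON ran from 31.9 to 46.8 CPM after saline and from 59.1 to 91.7 CPM after LPS.

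In the regulatory particle the ATPases differed among themselves. Psmc1 changed by 0.83 ± 0.12 on average (adjusted p = 3.20e-07, edgeR) and Psmc2 by 0.24 ± 0.072 (0.00406). Psmc3 was the only constitutive gene not called in the mean, at 0.16 ± 0.098 (adjusted p = 0.157, edgeR). In CON:CON it was at 33.2, 21.4, 24.1 and 30.1 CPM after saline and at 35.1, 37.0, 25.1 and 45.0 CPM after LPS, with overlap. All 11 Psmd genes were called higher on average, where 30.3% of all genes tested were. They ran from 0.35 ± 0.091 for Psmd11 to 1.13 ± 0.13 for Psmd14 (adjusted p = 3.08e-09, edgeR), the subunit that removes ubiquitin chains from substrates. Psmd14 in CON:CON stood at 22.7, 22.1, 21.2 and 22.0 CPM after saline and at 75.5, 45.0, 35.3 and 46.9 CPM after LPS. Psmd8, a lid subunit, followed at 1.11 ± 0.13, and Psmd6, with the largest p of the Psmd genes, was at 0.47 ± 0.12.

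Of the other activators, Psme3 (PA28 gamma, the nuclear form) changed by 0.85 ± 0.11 on average (adjusted p = 2.83e-08, edgeR). It ran from 30.9 to 38.8 CPM after saline and from 37.1 to 86.0 CPM after LPS in CON:CON, with overlap. Psme4 (PA200, a single-chain cap) changed by 0.23 ± 0.076 (adjusted p = 0.00892, edgeR), from 78.4 to 101 CPM after saline to 88.0 to 155 CPM after LPS in CON:CON, and edgeR called it in no single arm. Its call in the mean was lost without the filter (0.22), and voom called it in CON:CON (0.38).

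Counted over the list, 32 of 33 constitutive and 4 of 5 immune genes were called higher in the mean of the arms, where 30.3% of the 13420 genes tested were. None of the 38 was called lower in that contrast, where 26% of all genes were, or in any arm, where 9.84%, 10.9%, 14% and 10.4% of all genes were (CON:CON, MIA:CON, CON:PLX and MIA:PLX). The median log2 fold change was 0.61 over the constitutive and 0.78 over the immune genes, and 0.03 over all genes. The immune median is the value of Psmb10. Psme1 and Psme2 lay above it, while Psmb8 and Psmb9 lay below both the immune and the constitutive median. It therefore does not show that the immune catalytic subunits rose more than the constitutive genes. Leaving out each library in turn gave 32 and 4 every time, the library labelled MIA_CON_LPS replicate 6 included.

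**Figure D3:**
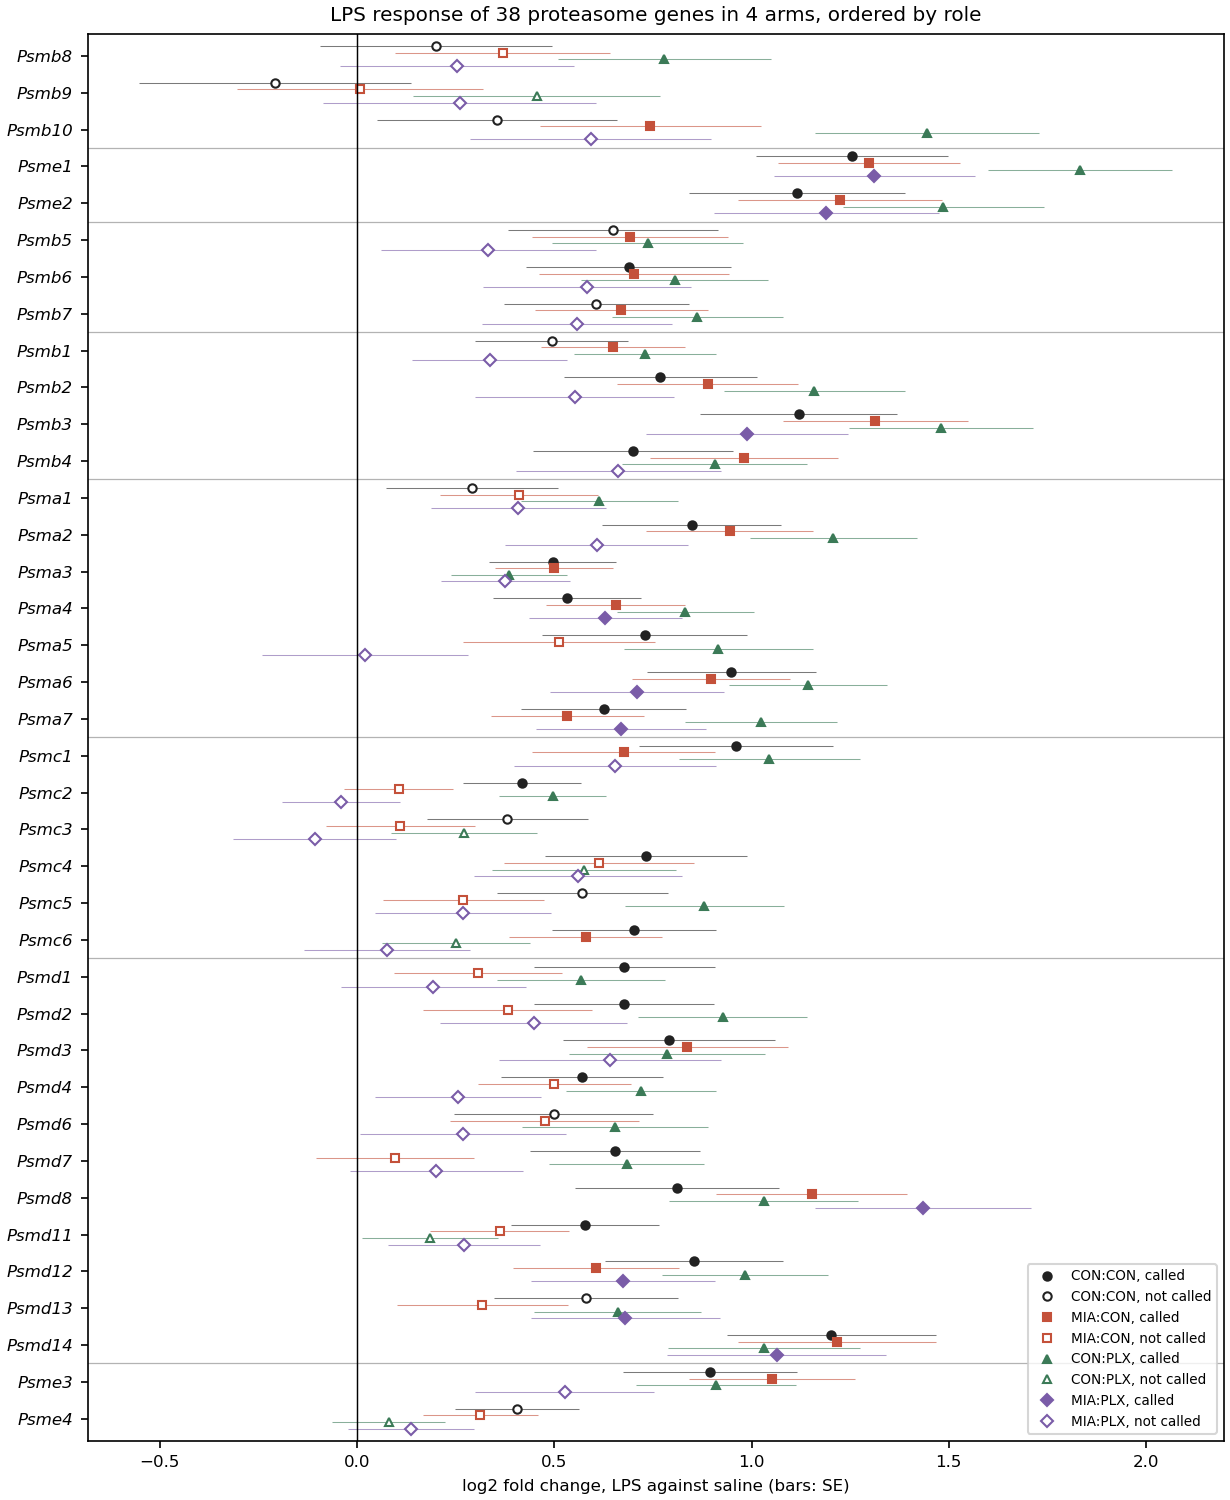
Log2 fold change (LPS over saline, bars are SE) of each of the 38 genes in the 4 arms, grouped by role, with filled symbols for adjusted p under 0.05 by edgeR. The PA28 genes and Psmb3 lie between 0.99 and 1.83 in every arm, and Psmb9 between -0.21 and 0.46.

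Within single arms the constitutive genes called higher were 24 of 33 in CON:CON (13.7% of all genes tested), 19 in MIA:CON (14.5%), 28 in CON:PLX (17.5%) and 8 in MIA:PLX (11.8%). The immune genes called were 2, 3, 4 and 2 of 5. Median log2 fold changes of the constitutive genes were 0.68, 0.60, 0.80 and 0.53 in that order, against 0.06, 0.03, 0.03 and 0.04 over all genes. All LPS libraries were above all saline libraries for 13, 13, 20 and 10 constitutive genes, and for 11.7%, 8.94%, 14% and 12.1% of all genes. They were all below for 0 of the 38 genes in each arm, and for 12.9%, 8.46%, 13.8% and 13.3% of all genes. The arms hold different numbers of libraries, and a difference between these counts was not tested as such.

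These counts depended on single libraries. The CON:CON count was 9, 12 or 13 without CON_CON_LPS replicate 1, 2 or 5, and 15 or 10 without CON_CON_SAL replicate 2 or 3. The MIA:CON count was 12 without MIA_CON_SAL replicate 1 and 23 without the library labelled MIA_CON_LPS replicate 6, and the MIA:PLX count was 5 without MIA_PLX_LPS replicate 5 and 3, 3 or 4 without MIA_PLX_SAL replicate 2, 3 or 4.

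In all 4 arms, which share no libraries, 7 constitutive genes were called higher: Psma4, Psma6, Psma7, Psmb3, Psmd8, Psmd12 and Psmd14. Of all genes tested, 7.33% were. A further 8 were called in 3 arms, 11 in 2 and 5 in 1, and Psmc3 and Psme4 in none. Of the immune genes, Psme1 and Psme2 were called in 4 arms, Psmb10 in 2, Psmb8 in 1 and Psmb9 in 0. With 1 library left out of its arm, between 3 and 10 constitutive genes were called in all 4 arms. Psmb3 was among them each time, as were Psme1 and Psme2 of the immune genes, and each of the other 6 was lost in at least 1 such fit. Without MIA_PLX_SAL replicate 2 the 3 were Psma6, Psmb3 and Psmd8, without replicate 3 they were Psmb3, Psmd8 and Psmd14, and without replicate 4 there were 4, with Psma7 added to these. The count was 4 without CON_CON_LPS replicate 1 or CON_CON_SAL replicate 1 or 3 (Psma4, Psma7 and Psmd8 lost) and 10 without MIA_PLX_LPS replicate 2, where Psma2, Psmb2 and Psmb4 were gained. Psma6 in MIA:PLX lost its call without MIA_PLX_SAL replicate 3 (0.67) or 4 (0.62), and Psmd8 in CON:CON when replicate 1 (0.74) or 5 (0.69) after LPS, or 1 (0.71) or 3 (0.74) after saline, was left out.

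No proteasome gene passed the test for the prenatal condition, for PLX or for their interaction with LPS. Over 12 contrasts (8 of MIA with CON or of PLX with its absence, made separately for saline and LPS, and 4 interactions with the injection), 0 of 38 genes were called by edgeR, DESeq2 or limma voom, and between 0% and 0.0149% of all genes tested were called by edgeR. At an unadjusted p under 0.05 there were 27 of the 456 gene-by-contrast values by edgeR. Of these, 9 of 38 fell in MIA against CON with PLX after LPS (8.89% of all genes tested) and 6 of 38 in PLX against none with prenatal CON after LPS (7.03% of all genes), the latter Psmb8, Psmb10, Psme1, Psme2, Psma1 and Psma7, all higher with PLX. Another 5 of 38 fell in MIA against CON without PLX after LPS (9.33% of all genes tested). The MIA by LPS interaction with PLX held 4 of 38 (2.93% of all genes). There were 2 in MIA against CON with PLX after saline (1.22%) and 1 in the PLX by LPS interaction with prenatal CON (2.65%). Without the library labelled MIA_CON_LPS replicate 6 the contrasts that use it called 0 of 38 too. Several of these contrasts share libraries, so they are not independent. The smallest adjusted p was 0.432, for the ATPase Psmc2, which differed by -0.40 ± 0.12 between MIA:PLX and CON:PLX after LPS.

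Psmb10 had the smallest unadjusted p among the contrasts of PLX against none. After LPS the 6 CON:PLX libraries ran from 34.68 to 67.6 CPM and the 4 CON:CON libraries from 15.5 to 34.46 CPM, so the groups nearly touched. The share of all genes whose libraries do not overlap in this contrast was not counted. The difference was 1.07 ± 0.28 (log2) with an adjusted p of 0.572 by edgeR, in a contrast where 0.00745% of all genes were called. In the same contrast after prenatal MIA the difference was 0.09 ± 0.24, and after saline with prenatal CON it was -0.02 ± 0.30. The summed monocyte markers were 17.9 to 146 CPM in CON:CON and 41.9 to 632 CPM in CON:PLX after LPS. Ccr2, which is among them, averaged 2.89 and 2.86 CPM in these groups, in that order. The part of these markers in the Psmb10 difference after LPS was not tested. With standard errors of this size, a call of 0 does not show that the arms were alike.

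Most pairs of the immune genes varied together between LPS libraries, in a comparison chosen after the data were seen. Over 22 LPS libraries centred on their group means, 7 of 10 pairs of the 5 genes were correlated past an adjusted permutation p of 0.05, with Pearson's r from 0.57 to 0.67. For Psmb8 and Psme1, r was 0.67 (permutation p = 0.00206, adjusted 0.0157) and Spearman's rho 0.65 (p = 0.00346, adjusted 0.0126). Their r was 0.61 without the 2 libraries farthest from the median of Psmb8. In each pair the 2 farthest were picked on the first-named gene alone, so extremes of the other gene could stay in. For Psmb9 and Psmb10, r was 0.66 (permutation p = 0.00315, adjusted 0.0157) and rho 0.64 (p = 0.00379, adjusted 0.0126), and r was 0.57 without the 2 farthest. Among the other 5 pairs that passed, r without the 2 farthest fell to 0.37 for Psme1 and Psme2 (0.57 with them), so that relation rests in part on those libraries, was 0.48 for Psmb8 and Psme2 (0.58 with them), and was 0.63 to 0.69 for the remaining 3. Without the library labelled MIA_CON_LPS replicate 6, r was 0.46 for Psme1 and Psme2 and 0.56 to 0.72 for the other 6 pairs that passed. The 3 pairs that did not pass were Psmb9 with Psme1 (r = 0.17, rho = 0.24, permutation p = 0.514 and 0.346), Psmb9 with Psme2 (r = 0.13, rho = 0.11, permutation p = 0.595 and 0.656) and Psmb10 with Psme2 (r = 0.24, rho = 0.21, permutation p = 0.304 and 0.359). The points share library depth and scaling, and the difference between correlations was not tested. Pairs of other genes were not looked at, so the relation was not shown to be particular to the immune genes.

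Genes that build and regulate the proteasome, a list of 30 of which 29 passed the filter, were called higher for 17 in the mean of the arms, where 30.3% of all genes were, and lower for 0. In CON:CON, MIA:CON, CON:PLX and MIA:PLX, 5, 10, 12 and 6 were called higher, against 13.7%, 14.5%, 17.5% and 11.8% of all genes, and the CON:CON share is near that background. Its median log2 fold change in the mean contrast was 0.42, against 0.03 over all genes. Adrm1, a ubiquitin receptor of the regulatory particle, was called in all 4 arms at a mean of 0.77 ± 0.099 (adjusted p = 3.68e-08, edgeR), and so was Rps27a, which encodes ubiquitin fused to a ribosomal protein, at 1.34 ± 0.14. Nfe2l1, a transcription factor known to drive proteasome genes when proteolysis is impaired, changed by 0.56 ± 0.096 on average (adjusted p = 5.41e-06, edgeR). Pomp, the assembly chaperone of the core, did not pass, at -0.03 ± 0.095, with 51.7 to 85.8 CPM after saline and 44.8 to 109 CPM after LPS. The inhibitor Psmf1 (0.25 ± 0.13) and the testis form Psma8 (0.21 ± 0.21) did not pass either, and the thymus form Psmb11 was below the filter.

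MHC class I genes and their regulators, a list of 14 all of which were tested, were called higher for 11 on average (30.3% of all genes tested) and for 9, 10, 11 and 9 in the arms (13.7%, 14.5%, 17.5% and 11.8%), with a median in the mean contrast of 1.03 against 0.03 over all genes. Nlrc5, the MHC class I transactivator, changed by 3.51 ± 0.24, Irf1 by 1.44 ± 0.18 and B2m by 1.10 ± 0.091. Tap2, the partner of Tap1, changed by 0.32 ± 0.13 (adjusted p = 0.0375, edgeR) and was called in 1 arm. Calr, Canx and Pdia3, folding factors of the endoplasmic reticulum, did not pass in any arm.

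Spread between libraries of a group was larger after LPS for 36 of the 38 genes, with a median SD of log2 CPM of 0.384 after LPS and 0.201 after saline. Over all genes tested the share was 93.7%, with medians of 0.554 and 0.286, so the larger spread is not particular to the proteasome genes.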

How the data were processed

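For 39 libraries the authors deposited expected counts, estimates that need not be whole. STAR, RSEM and DESeq2 are named in the submitters' processing notes, with no version and no role. Neither the build nor the annotation used for counting is given in the sources used here. Complementary DNA was made by linear amplification without ribosomal RNA depletion and without strand information, per the labels' protocols. Symbols came from GENCODE M21, in which 55141 of 55487 identifiers matched, and 0.0132% of the counts had no symbol. Per-sample columns left unused because they matched no sample numbered 0.

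Counts were rounded and fitted in edgeR 4.0.16 (R 4.3.3) by quasi-likelihood with TMM factors, robust dispersion and 1 mean per group over 37 libraries, after filterByExpr (minimum count 10, minimum total 15) had kept 13420 genes. Benjamini-Hochberg adjustment ran over the 13420 genes, and calls are those with an adjusted p below 0.05. The mean of the arms weights the 4 arms equally. The SE is the log2 fold change divided by the square root of F. Ratios are log2 of counts plus 0.5, tested by two-sided exact permutation over libraries. Correlations used 100000 permutations. Level per length used the longest coding transcript. Promoters came from a RefSeq table of GRCm38.p6, searched on both strands. The fit was tested on simulated data for 4 against 4 libraries; it missed most 2-fold changes, after which larger folds were added to the test and its required recovery was lowered, so a gene not called in a single arm may still have changed.

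The genes described in full were the 5 immune genes, Psmb5, Psmb6, Psmb7, Psme3 and Psme4, and the members with the smallest and the largest p in the mean contrast from the alpha ring, the other beta subunits, the ATPases and the Psmd genes; from the assembly list, Pomp, Nfe2l1, Psmf1, Psma8, Psmb11 and those called in all 4 arms. Psmd14, Psmd11, Psmc2, Psmd13, Psmb4 and the MHC class I genes were named after their values were seen. The members and lists were chosen with earlier results of these data known. Alternatives were RLE size factors, DESeq2 1.42.0, limma 3.58.1 voom with quality weights, no filter, all 39 libraries, mitochondrial ribosomal RNA left out, only the groups compared, the replicate number as a block, another pseudocount and each library left out in turn. Replicate numbers are not said to pair libraries. Libraries with the same number correlated with a median r of 0.06 (107 pairs of deviations from group means) and those with different numbers with -0.0045 (487 pairs), so no pairing was used.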

Additional observations from a re-analysis of the deposited data

Results flagged for a closer look

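Of 126 gene-by-group checks for a library far from the rest of its group, 3 were positive. Some positives can arise by chance, and checks of different genes use the same libraries, so they are not independent. Psmb7 was at 32.49 CPM in CON_CON_SAL replicate 1, above the 25.0 to 26.0 CPM of the other 3 libraries. Psmb1 was at 23.53 CPM in the library labelled MIA_CON_LPS replicate 6, below the 32.9 to 37.1 CPM of the other 5 and inside the saline range of 16.9 to 27.5 CPM. Psmc3 was at 19.92 CPM in CON_PLX_LPS replicate 6, below the 33.6 to 40.9 CPM of the other 5.

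The pair of libraries whose titles ask for exclusion entered no comparison, and in 6 of 18 values looked at, for 9 genes, they were above the highest of the 15 saline libraries used. MIA_PLX_SAL replicate 1 had 64.3 CPM of Psme1 (33.6 to 57.7 in the saline libraries on the same scale), 44.36 CPM of Tap1 (20.6 to 33.8), 33.69 CPM of Psmb6 (15.3 to 32.1) and 38.19 CPM of Psmb7 (24.9 to 36.2). CON_CON_LPS replicate 3 had 34.75 CPM of Psmb6 and 39.4 CPM of Psmb7. That library, labelled LPS, was below the other CON:CON libraries after LPS and inside the saline range for Psme1 (48.4 CPM, against 56.8 to 119 in its group), Psme2 (27.3, against 39.8 to 61.1), Psmb5 (15.5, against 16.8 to 31.6) and Tap1 (23.6, against 39.8 to 101). Its P2ry12 level was 2239 CPM, against 175 to 378 in its group and 2063 to 2868 after saline. That of MIA_PLX_SAL replicate 1 was 1854 CPM, below this saline range and below the 2587 to 2850 CPM of its own group.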

How the results depend on the processing

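In the mean of the arms, 32 constitutive and 4 immune genes were called higher under every alternative fitted for it. The exception was the fit without the filter on low counts, where more genes were tested and 30 constitutive genes were called. The mean uses all groups, so it had no separate fit with only the groups compared. No proteasome gene was called lower, or called for prenatal condition, PLX or an interaction, under any alternative or with any 1 library left out. Single arms moved more. Constitutive genes called higher in CON:CON numbered 13 without the filter, 13 with all 39 libraries and 14 with only the groups compared, in MIA:CON 10 without the filter and 11 with only the groups compared, and in MIA:PLX 17 with voom and 4 without the filter. With 1 library left out they ranged from 9 to 29 in CON:CON, 12 to 23 in MIA:CON, 23 to 29 in CON:PLX and 3 to 12 in MIA:PLX. Where a setting leaves more or fewer genes or libraries, that is its construction; otherwise the cause was not tested.

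Values near 0 turned sign. Psmb9 in MIA:CON was -0.0269 with RLE factors, -0.0331 with DESeq2, -0.0125 without the filter and -0.0396 with only the groups compared, and from -0.2002 to 0.152 with 1 library left out. With 1 library left out, Psmb8 in CON:CON ran from -0.068 to 0.3097, Psmb9 in CON:CON from -0.4498 to 0.0126 and Psmc3 in MIA:CON from -0.011 to 0.2166. The Psmb8 to Psmb5 difference in MIA:PLX was 0.0073 with all 39 libraries. With 1 library left out it ran from -0.2023 to 0.0455 there and from -0.1704 to 0.1079 in CON:PLX, and that of Psmb10 to Psmb7 from -0.1632 to 0.2007 in MIA:CON and from -0.1789 to 0.3295 in MIA:PLX. That of Psmb9 to Tap1 ran from -2.0407 to -1.4617 in CON:CON, -1.7526 to -1.2297 in MIA:CON, -1.4596 to -0.9422 in CON:PLX and -1.8553 to -1.3575 in MIA:PLX.

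With the replicate number as a block, constitutive genes called higher numbered 21, 22, 29 and 9 in CON:CON, MIA:CON, CON:PLX and MIA:PLX and immune genes 2, 3, 4 and 3. Under the block, Psmb10 (0.75) and Psmc1 (0.70) in MIA:PLX and Psmd6 (0.60) in MIA:CON passed, and Psmb6 (0.54) and Psmd8 (0.64) in CON:CON did not; no other named call changed, and the numbers were not taken to pair libraries. At 23 to 740 counts per gene and library, counting error alone limits the precision of single values.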
